A study of Drosophila melanogaster with 3 samples.

Results

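The genes examined encode components of the Wingless (Wg) pathway, the canonical Wnt pathway of Drosophila melanogaster. They are wg, Wnt6, fz, arr, Axn, Apc, sgg, arm, pan and nkd, 10 of the 13945 protein-coding genes on the main chromosome arms. All 10 were matched by symbol. For each gene, every peak summit in the gene body and in 5000 bp on either side was collected, and this stretch is called its window. The windows covered 418 kb without overlapping and held 24 of the 5326 reproducible summits of the series.

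The summits came from chromatin immunoprecipitation followed by sequencing (ChIP-seq), which recovers DNA bound directly or indirectly by a chosen protein. Mixed-sex whole embryos of the strain mam-MiMIC-GFP, aged 0 to 24 h, were used in 3 biological replicates of a single group. An eGFP exon placed in an intron of mam makes a fusion of Mastermind (Mam) with GFP, which was precipitated with an anti-GFP antibody after sonication to 200 to 800 bp. The antibody field of the labels names mam, the fused gene. All stages and cell types of the embryo were mixed, so binding in few cells and weak binding in many cannot be told apart, and a control named in the labels was not analysed here.

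Mam is a coactivator of the Notch pathway. It is held at Notch target genes by the cleaved receptor and by Su(H), the protein that binds the DNA. In the Wg pathway, secreted Wg binds a Frizzled receptor and its co-receptor Arrow. A cytoplasmic destruction complex that otherwise marks the β-catenin Armadillo for degradation is then inhibited, and Armadillo enters the nucleus and joins the TCF protein Pangolin at target genes. In the embryo the pathway is known for setting segment polarity in the epidermis, and it acts beside Notch in many tissues.

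Peaks were compared within lists, by the authors' signal value, a peak height with an unstated scale. A reproducible peak is one of the authors' list thresholded by the irreproducible discovery rate (IDR), which held the 5326 strongest of the 24073 peaks called on the pooled replicates. Each replicate also had a list of peaks and background, with 30000, 24267 and 24306 entries. Rank 1 is the strongest peak of a list, and a replicate was counted as supporting a reproducible peak when one of its own 5326 strongest peaks overlapped it by at least 1 bp. The lists carry no read numbers, so the depth of each replicate is unknown. Pooled and reproducible lists came from the same replicates, so replicate support is partly built in. With a single group there was no contrast to test, and the values below are descriptions set beside the same values over all genes or peaks.

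The sequences around 6 of these summits are given because they are the strongest reproducible summits in, or within 500 bp of a transcription start site (TSS) of, each gene. They are shown for the 6 genes with the highest such signals other than arr, whose sequence is not shown, on the plus strand of the Release 6 (dm6) assembly of RefSeq. Each spans 100 bp on either side of the summit, less the bases of untranslated regions, of which 6 were left out for nkd, 8 for Axn and 74 for arm. Capitals mark matches to the words searched, which are the TCF/Pangolin core in sgg and Wnt6, the GAGA factor word in nkd and Wnt6, and the BEAF-32 word in Axn and arm. The fz sequence held none of the words.
sgg, chrX:2646297-2646497: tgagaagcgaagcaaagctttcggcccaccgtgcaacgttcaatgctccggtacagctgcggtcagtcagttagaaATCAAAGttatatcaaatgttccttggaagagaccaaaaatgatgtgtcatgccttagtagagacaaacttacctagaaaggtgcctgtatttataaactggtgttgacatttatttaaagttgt
fz, chr3L:14303975-14304175: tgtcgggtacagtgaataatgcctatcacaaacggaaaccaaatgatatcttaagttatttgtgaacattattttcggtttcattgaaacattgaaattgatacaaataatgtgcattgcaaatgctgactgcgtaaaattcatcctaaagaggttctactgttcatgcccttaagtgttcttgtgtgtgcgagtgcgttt
nkd, chr3L:19045450-19045644: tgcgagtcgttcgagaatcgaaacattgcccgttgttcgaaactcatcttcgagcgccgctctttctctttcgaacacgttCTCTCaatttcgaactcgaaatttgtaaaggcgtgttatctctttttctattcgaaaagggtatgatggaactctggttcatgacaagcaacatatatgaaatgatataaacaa
Wnt6, chr2L:7333257-7333457: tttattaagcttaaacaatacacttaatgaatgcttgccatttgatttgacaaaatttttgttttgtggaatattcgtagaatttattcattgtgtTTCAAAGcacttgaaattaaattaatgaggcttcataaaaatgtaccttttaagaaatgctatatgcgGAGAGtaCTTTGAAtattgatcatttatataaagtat
Axn, chr3R:30022649-30022841: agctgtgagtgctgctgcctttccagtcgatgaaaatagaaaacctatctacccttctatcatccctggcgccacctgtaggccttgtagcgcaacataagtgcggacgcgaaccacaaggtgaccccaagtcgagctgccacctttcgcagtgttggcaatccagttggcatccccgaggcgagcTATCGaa
arm, chrX:1900174-1900300: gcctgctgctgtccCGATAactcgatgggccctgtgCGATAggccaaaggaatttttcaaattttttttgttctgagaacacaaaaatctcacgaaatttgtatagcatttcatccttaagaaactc

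A reproducible summit lay in the window of 10 of 10 Wg pathway genes, against 56.5% of all protein-coding genes. The windows of these genes are long, 34.2 kb in the median against 12.2 kb for all protein-coding genes. Of the 2009 genes with windows of 19.1 to 104 kb, the range of the 10, 72.1% had a summit. Summits within 1000 bp of one of the gene's own TSSs were found for 5 of the 10 genes, Wnt6, Axn, sgg, arm and nkd, against 29.7% of all protein-coding genes. That share was not matched in the number of TSSs per gene. Of the 5, sgg had 11 TSSs, arm 4, Axn 2, and Wnt6 and nkd 1 each. Of the genes without such a summit, pan had 4, Apc 2, and wg, fz and arr 1 each. In the gene body itself 6 of the 10 had a summit, against 13.5% of all protein-coding genes and 43.1% of those with bodies in the same range of lengths. The strongest was an internal promoter of sgg, at rank 180, followed by an intron of fz at rank 586 and the promoter of nkd at rank 1192.

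**Figure D1:**
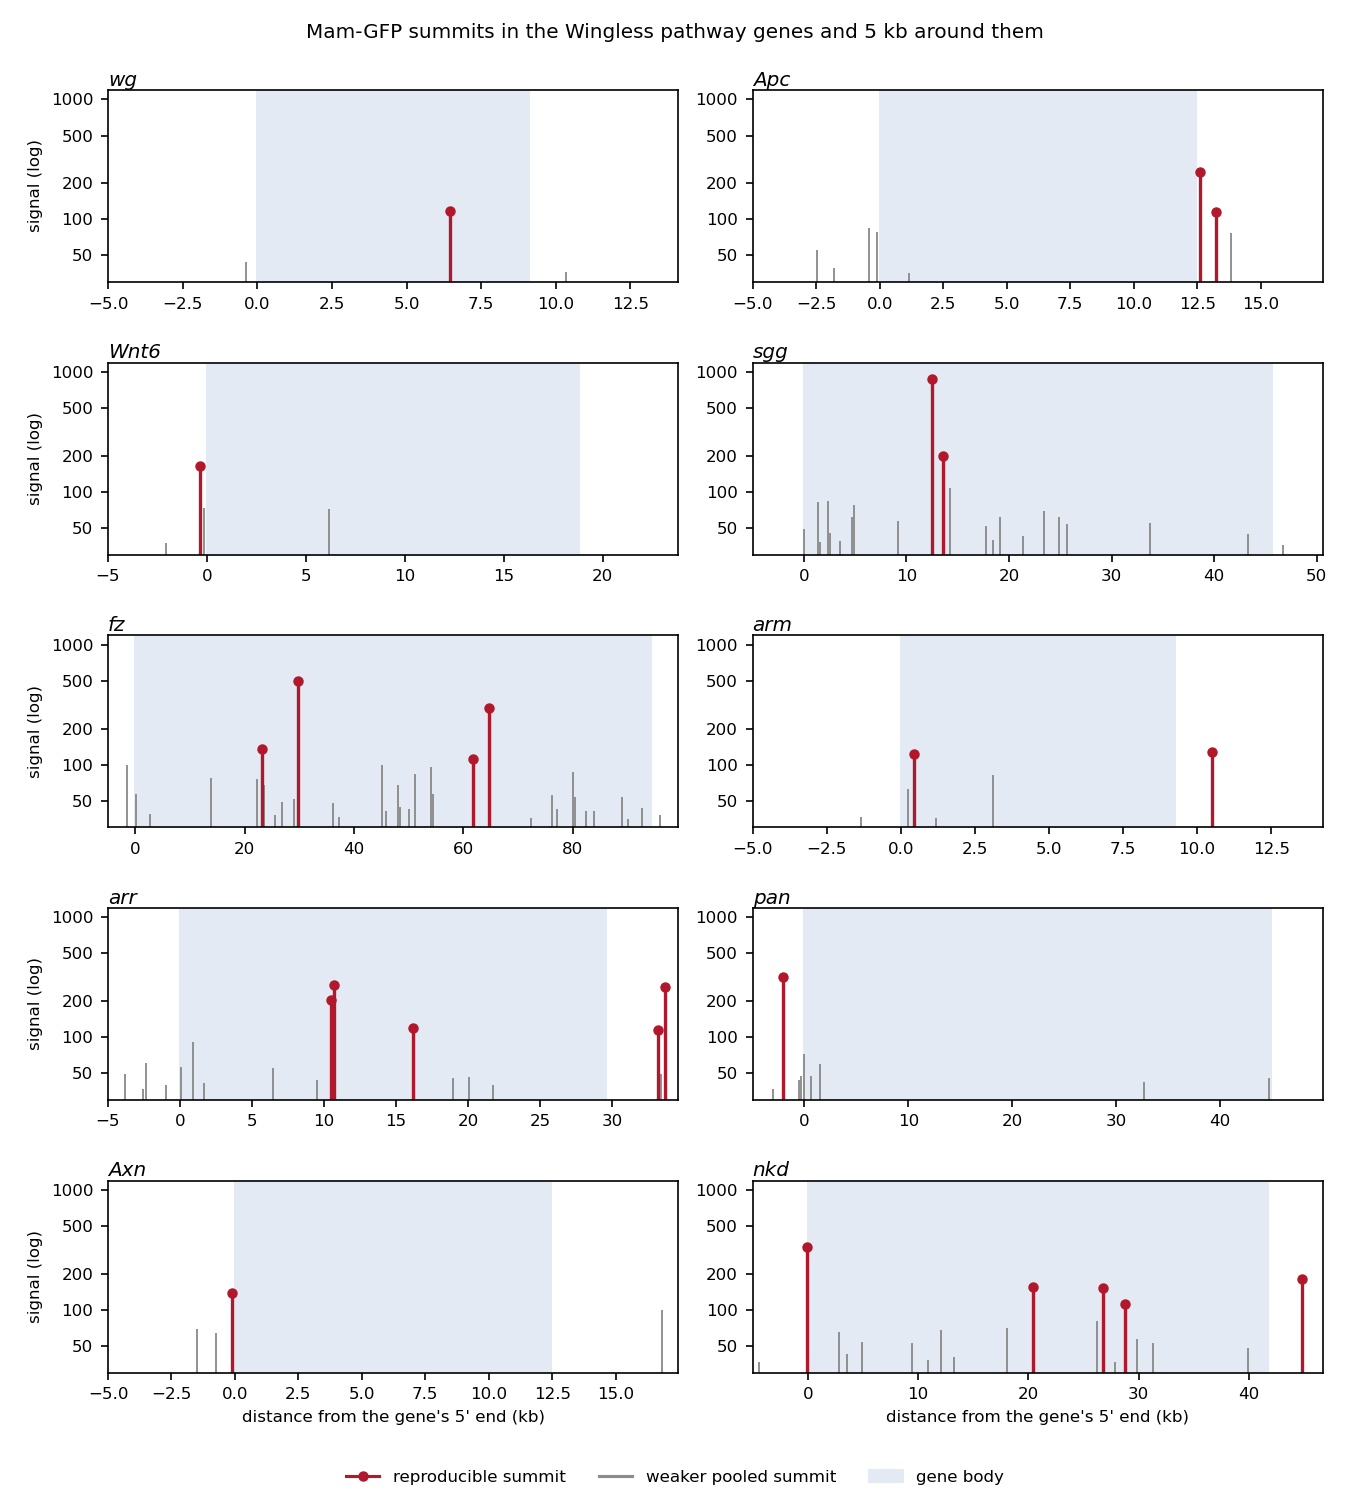
Signal of the pooled list (log axis) against the distance of each summit from the gene's 5' end in kb, 1 panel per gene, with the gene body shaded and 5 kb on either side. Red stems are the 24 reproducible summits and grey stems the 103 weaker pooled summits. The tallest stem is at sgg, with a signal of 871. At Wnt6, Axn, Apc and pan all reproducible summits lie outside the gene.

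Among the ligands, wg (FBgn0284084, chromosome 2L, 7307159 to 7316265, plus strand), the main Wnt of the embryo, held a single reproducible peak at 7313429 to 7313824. Its summit lay in intron 3 of the gene, 1178 bp long, and 6468 bp downstream of the TSS. The pooled signal was 118 and the rank 4919, near the weak end of the list. In replicates 1, 2 and 3 the overlapping peak had a signal of 62.8, 31.3 and 19.9 and ranked 2913, 6146 and 12826. Only replicate 1 ranked it among its strongest peaks, and the spread of ranks at wg was wide. No reproducible summit lay at the wg promoter, where the pooled list had a summit with a signal of 44.1 just upstream of the TSS.

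Wnt6 (FBgn0031902, 2L, 7333714 to 7352542, plus strand), a Wnt ligand encoded beside wg, had its single reproducible peak at its promoter, at 7333159 to 7333554. The summit lay 357 bp upstream of the TSS, with a signal of 164 and rank 3318. Replicate signals were 74.2, 33.9 and 66.7, with ranks of 2285, 5629 and 2789, so replicates 1 and 3 supported the peak and replicate 2 did not. Among the strongest peaks of the replicates, the Wnt6 window held 2, 1 and 3 summits, and the 1 of replicate 2 was another peak, 803 bp from the Wnt6 TSS. The 2 ligands thus differed in where the peak lay, in an intron at wg and at the promoter at Wnt6.

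The receptor gene fz (FBgn0001085, 3L, 14274343 to 14368639, plus strand) encodes Frizzled, a seven-pass membrane receptor for Wg that also acts in planar cell polarity. It spans 94297 bp and held 4 reproducible summits, all in its 2 long introns and none at its promoter. The strongest peak, at 14303949 to 14304163 in intron 1, lay 29732 bp from the fz TSS and 22176 bp from any TSS, the nearest being that of lncRNA:CR45025. It had a pooled signal of 496, with 216, 155 and 129 in replicates 1, 2 and 3 at ranks 323, 653 and 1032. All replicates placed it among their strongest peaks, with replicate 1 giving the best rank.

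A second peak in intron 4 of fz, at 14338897 to 14339292, had a signal of 294 and rank 1489. Its replicate signals of 99.6, 85.2 and 99.9 stood at ranks 1421, 1814 and 1574, the closest set of ranks among the fz peaks. The other fz peaks, at 14297391 to 14297786 in intron 1 and at 14335845 to 14336240 in intron 4, were weak, with signals of 136 and 112 at ranks 4181 and 5220. The first was supported by 3 replicates and the second by 2. Around these peaks the fz window held 30 weaker pooled summits, 26 of them in introns.

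The co-receptor gene arr (FBgn0000119, 2R, 13453640 to 13483229, minus strand) encodes Arrow, the LRP5/6 relative of the fly. Its window had the highest density of the 10, 1.26 reproducible summits per 10 kb, from 5 summits. Of these, 3 lay in intron 2, which is 22250 bp long, and the other 2 lay beyond the 3' end of arr at promoters of cnn, a centrosome gene. The strongest, at 13472339 to 13472734, was intronic, with a signal of 275 and rank 1651, and lay 10692 bp from the arr TSS. It overlapped another reproducible peak, at 13472542 to 13472937 with a signal of 203. The 2 peaks had the same overlapping peak in each replicate, of signal 76.6, 117 and 90.2, so the replicates gave a single peak there. Counted once, they leave arr with 4 sites, or 1.01 per 10 kb, below arm at 1.04.

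The remaining arr peak in intron 2, at 13466876 to 13467271, had a signal of 119, and the cnn promoter peaks had signals of 264 at 13449469 to 13449644 and 115 at 13449880 to 13450275. The stronger cnn peak was supported by 3 replicates, at ranks of 2141, 2329 and 1212. Neither receptor gene had a reproducible summit in the 1000 bp around any of its TSSs. In replicate 3, 2 strong peaks lay 1053 and 850 bp from the arr TSS, over a pooled peak of signal 91.5 that did not reach the reproducible list.

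In the destruction complex, sgg (FBgn0003371, X, 2633952 to 2679553, plus strand) encodes Shaggy, the GSK-3 kinase that phosphorylates Armadillo. It has 19 annotated transcripts with 11 TSSs, and its 2 reproducible summits lay nearest to an internal TSS, not to the first. The stronger was of the promoter class and the other of the intron class. The peak at 2646110 to 2646636 had the highest signal of all 24, 871. Its summit was 240 bp upstream of the internal TSS and 12445 bp downstream of the first, within introns of 14 transcripts. Replicate signals at this sgg peak were 299, 304 and 274 at ranks 149, 153 and 234. All replicates ranked it highly and within a narrow range.

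The second sgg peak, at 2647346 to 2647741, lay 907 bp downstream of a TSS, with a signal of 198 and rank 2606. All 3 replicates supported it, at ranks of 2166, 3443 and 2168. A further pooled peak of sgg, at 2647973 to 2648368, was the strongest of the 10 genes to miss the reproducible list, with a signal of 107 at rank 5484. For comparison, the weakest reproducible summits of the 10 genes had a signal of 112, at fz and nkd, and the lowest signal of the whole list was 110. The sgg window held 19 further weak pooled summits, spread over the gene.

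Axn (FBgn0026597, 3R, 30022842 to 30035311, plus strand) encodes Axin, the scaffold of the complex. It had a single reproducible peak, at 30022546 to 30022941, between divergent genes. The summit lay 98 bp upstream of the Axn TSS and 96 bp from the TSS of RpS28a, a ribosomal protein gene on the minus strand whose TSS is 194 bp from that of Axn. At 139 the signal was low, with rank 4071, and the replicate signals of 50.2, 54.1 and 32.6 stood at ranks 4019, 3289 and 6500. Replicates 1 and 2 supported the Axn peak and replicate 3 did not. The window of Axn held 8 other protein-coding genes, the most of the 10.

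Apc (FBgn0015589, 3R, 28832301 to 28844748, minus strand) encodes a tumour suppressor protein that binds Armadillo in the complex. Neither of its reproducible peaks lay in the gene or at its promoter. Both lay just beyond its 3' end, at promoters of WASp, an actin regulator on the same strand. The peak at 28831945 to 28832340 had a signal of 248, and its summit was 158 bp beyond the end of Apc and 119 bp from a WASp TSS. Its replicate signals were 49.9, 71.2 and 126 at ranks 4050, 2298 and 1088, so that replicate 1 was the lowest and replicate 3 the highest. The other, at 28831315 to 28831710, had a signal of 115 and was supported by replicate 3 alone. At the Apc promoter itself, next to that of spg, a peak among the strongest of replicate 1 and another of replicate 2 had their summits apart, at 28845183 and 28844836. The strongest pooled peak they overlapped had a signal of 84.6, below the reproducible list.

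Among the nuclear effectors, arm (FBgn0000117, X, 1891401 to 1900646, minus strand) encodes Armadillo, the β-catenin that carries the signal into the nucleus. Its own promoter peak, at 1900002 to 1900397, had a signal of 122 and rank 4769, with the summit 27 bp upstream of an arm TSS and 446 bp inside the longest transcript. Replicate ranks at that arm peak were 9962, 3951 and 5058, from signals of 27.1, 46.6 and 40.7. The second peak of the window, at 1889934 to 1890329, had a signal of 128 and lay 1269 bp beyond the 3' end of arm, 124 bp from the TSS of mRpL16, a mitochondrial ribosomal protein gene. Its ranks were 7335, 3689 and 3946. Replicate 1 was the lowest at both arm peaks and had none of its strongest summits in the arm window, against 3 in replicate 2 and 2 in replicate 3.

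The gene pan (FBgn0085432, chromosome 4, 69326 to 114270, plus strand) encodes Pangolin, the TCF protein to which Armadillo binds. It had the lowest density of the 10, 0.182 reproducible summits per 10 kb. Its single peak, at 67224 to 67364, lay 2051 bp upstream of pan and 68 bp from the TSS of RpS3A, a ribosomal protein gene on the opposite strand. With a signal of 321, it ranked 1277, and the replicate ranks were 2046, 982 and 1162. All replicates supported this peak. In the gene body of pan itself there was no reproducible summit, and the highest signal among the 8 weaker pooled summits of the window was 72.4. Soft-masked repeats made up 28.6% of the pan window and 37.5% of that of Wnt6, against 8.41 to 19.6% in the other 8.

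The feedback inhibitor gene nkd (FBgn0002945, 3L, 19003741 to 19045449, minus strand) encodes Naked cuticle, which is induced by Wg and acts against it through Dishevelled. It had 5 reproducible summits, as many as arr. The promoter peak, at 19045501 to 19045687, had a signal of 334 and rank 1192, with its summit 95 bp upstream of the TSS. Replicate signals at the nkd promoter were 126, 122 and 91.2 at ranks 926, 1027 and 1835. Every replicate supported it, with replicate 3 the lowest. Of the 10 genes, nkd was the one with its strongest reproducible peak at its first TSS and a rank in the strongest 2663.

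In intron 1 of nkd, which is 33245 bp long, lay 3 further peaks with signals of 112 (19016479 to 19016874), 151 (19018503 to 19018898) and 154 (19024809 to 19025204). Each of these 3 intronic peaks of nkd was supported by 2 replicates. The replicate that did not support the peak was replicate 3 for the peaks with signals of 112 and 154, at ranks 7003 and 5419, and replicate 1 for the other, at rank 6767. The fifth summit, in the peak at 19000458 to 19000853, lay 3085 bp beyond the 3' end of nkd and 48 bp from the TSS of the neighbour CG3808, with a signal of 180 and support from 3 replicates.

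**Figure D2:**
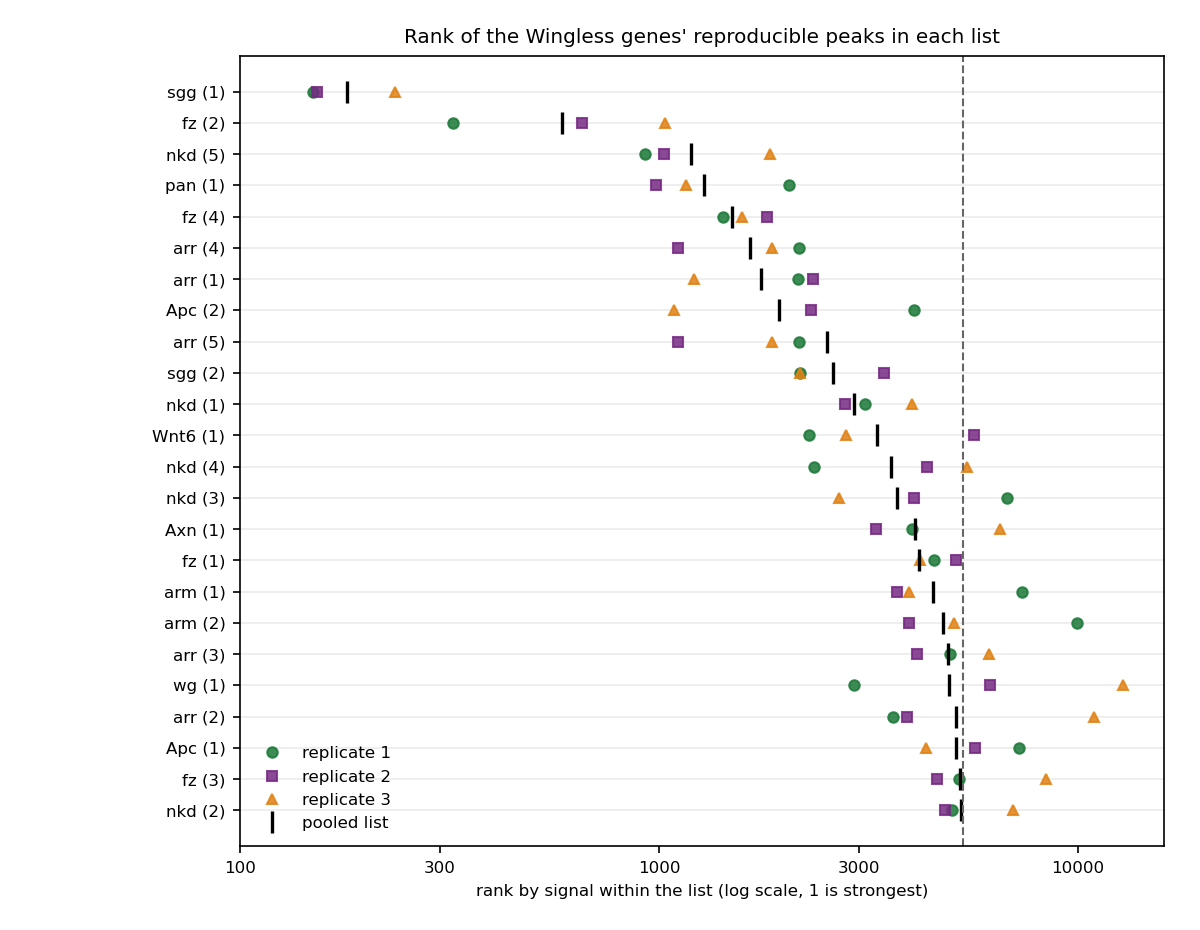
Rank by signal within the list (log axis, 1 is the strongest) of the 24 reproducible peaks, numbered in each gene by position along the chromosome, with 1 symbol per replicate and a black bar for the pooled list. The dashed line is rank 5326; the sgg peak at the top lies between ranks 149 and 234 in the replicates, while the replicate ranks of the wg peak run from 2913 to 12826.

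Support by the replicates followed the strength of the peaks. Of the 24 peaks, 12 were supported by all 3 replicates, 10 by 2 and 2 by 1, namely the peak of wg and the weaker one of Apc. Over all reproducible peaks, 73.5% were supported by all 3. In the strongest 2663 reproducible peaks, 10 of 10 peaks of the Wg pathway genes had support from 3 replicates, against 99.5% of all. In the weaker 2663, it was 2 of 14, or 14.3%, against 47.5% of all. Replicates 1, 2 and 3 supported 20, 21 and 17 of the 24 peaks, and over the whole list they supported 86.5%, 89.5% and 90.3%. Replicate 3 thus supported the fewest peaks at these genes and the most in the whole list.

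Most replicate summits lay close to the reproducible summits even where ranks differed. Only replicate peaks that overlapped a reproducible peak were measured, and that list came from the same replicates, so closeness is partly built in. Replicate summits were not measured against each other. Every one of the 24 peaks was overlapped by some peak in each replicate list, background entries included. Of the 69 distinct replicate summits in these overlaps, 61 lay within 50 bp of the nearest reproducible summit, with a median distance of 15 bp. The largest distance was 285 bp, at the weaker cnn promoter peak in the arr window in replicate 3. In the other direction, 5 of 26, 4 of 24 and 7 of 26 strongest summits of replicates 1, 2 and 3 in the windows belonged to peaks that overlapped no reproducible peak. At fz, 2 such sites were seen in replicates 1 and 3, over pooled peaks with signals of 100 and 94.6.

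Over the joined windows of the 10 genes the density was 0.574 reproducible summits per 10 kb, against 0.461 in the windows of all protein-coding genes and 0.398 over the main arms. The strongest peaks of the replicates gave 26, 24 and 26 summits in these windows, 25.3 ± 1.15 (SD, n = 3), or 0.606 ± 0.0276 per 10 kb (SD, n = 3). Of the 10 genes, arr, arm and nkd had the highest densities, 1.26, 1.04 and 0.967 per 10 kb, followed by Apc at 0.891 and wg at 0.523. Below them came Axn at 0.445, fz at 0.384, sgg at 0.36 and Wnt6 at 0.347, and pan at 0.182 was the lowest. The order rests on 1 to 5 summits per gene, and in arm the replicates gave 0, 3 and 2 summits, so neighbours in the order are not separated.

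Gene by gene, the median density was 0.484 per 10 kb for the 10 genes. It was 0.579 for all protein-coding genes and 0.429 for the genes with windows of the same range of lengths. Of all protein-coding genes, 77.7% had a lower density than arr and 44.1% a lower one than pan. Replicates 1, 2 and 3 had a strongest summit in the windows of 9, 9 and 8 of the 10 genes, against 55.1%, 56.2% and 56.7% of all protein-coding genes. These shares were not matched in window length. In the reproducible list, the share for genes with windows in the range of the 10 was 72.1%. The genes without one were arm in replicate 1, wg in replicate 2, and wg and Axn in replicate 3.

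**Figure D3:**
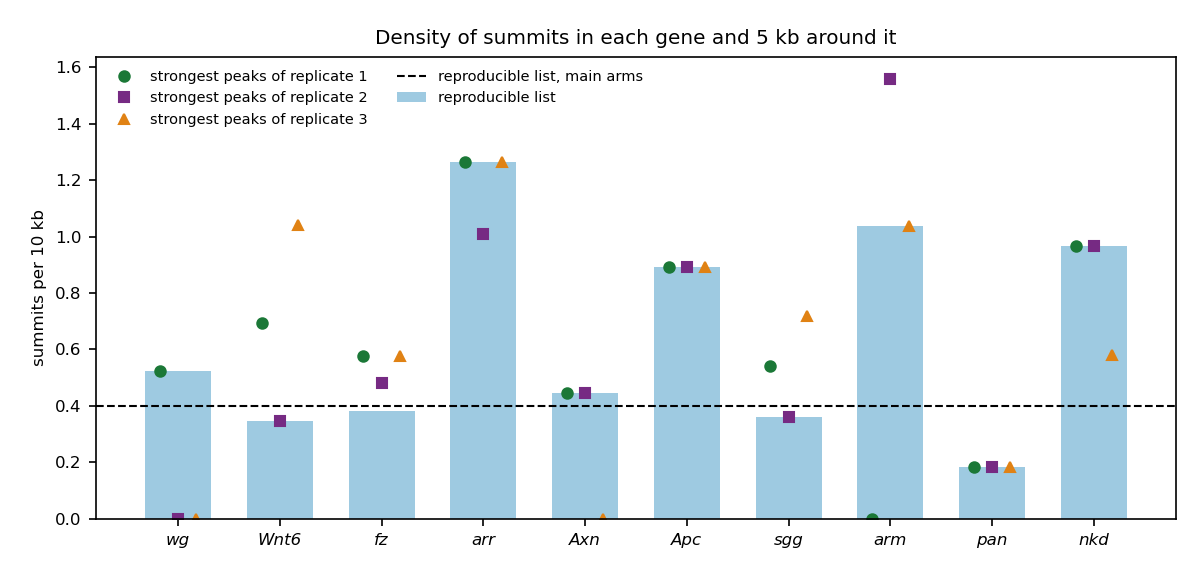
Summits per 10 kb in the window of each gene, as bars for the reproducible list and symbols for the 5326 strongest peaks of each replicate, with the dashed line at the density over the main arms, 0.398. The bar of arr is the tallest at 1.26 and that of pan the lowest at 0.182; the symbols of arm spread the widest, from 0 to above its bar.

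The pooled list held 127 summits in the windows, 3.04 per 10 kb against 2.02 in the windows of all protein-coding genes and 1.80 over the arms. Of these, 103 fell below the reproducible list, with 30 at fz, 20 at sgg and 14 at nkd. The remainder were 13 at arr, 8 at pan, 6 at Apc, 4 at arm, 3 each at Wnt6 and Axn and 2 at wg. The share of pooled summits that were reproducible was 18.9% at these genes and 22.1% in all. Their reproducible peaks were also weaker, with a median signal of 159 against 195, and 10 of 24 lay in the strongest 2663. Pooled summits were sparsest at Wnt6, wg, pan and Axn, with 1.39, 1.57, 1.64 and 1.78 per 10 kb, below the median of 2.39 over all protein-coding genes.

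By location, the 24 summits fell into 2 classes only. Promoters, taken as within 500 bp of a TSS of any gene, held 12 of 24 against 56.9% of all reproducible summits and 12.8% of the bases of these windows. Introns held the other 12, against 31.2% of all reproducible summits and 59.9% of the bases. None lay in coding sequence, where all reproducible summits had 0.169%, or in intergenic sequence, where they had 10.6%. Intergenic bases made up 8.24% of these windows and 27.2% of the main arms. In the strongest peaks of the replicates the promoter share in these windows was 43.5% ± 2.04 and the intron share 52.6% ± 4.44 (SD, n = 3). Their intergenic share was 0%, 4.17% and 7.69% in replicates 1, 2 and 3. The weaker pooled summits of the 10 genes lay mostly in introns, 61.2%, close to the share of bases, with 24.3% at promoters and 6.80% in coding sequence.

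**Figure D4:**
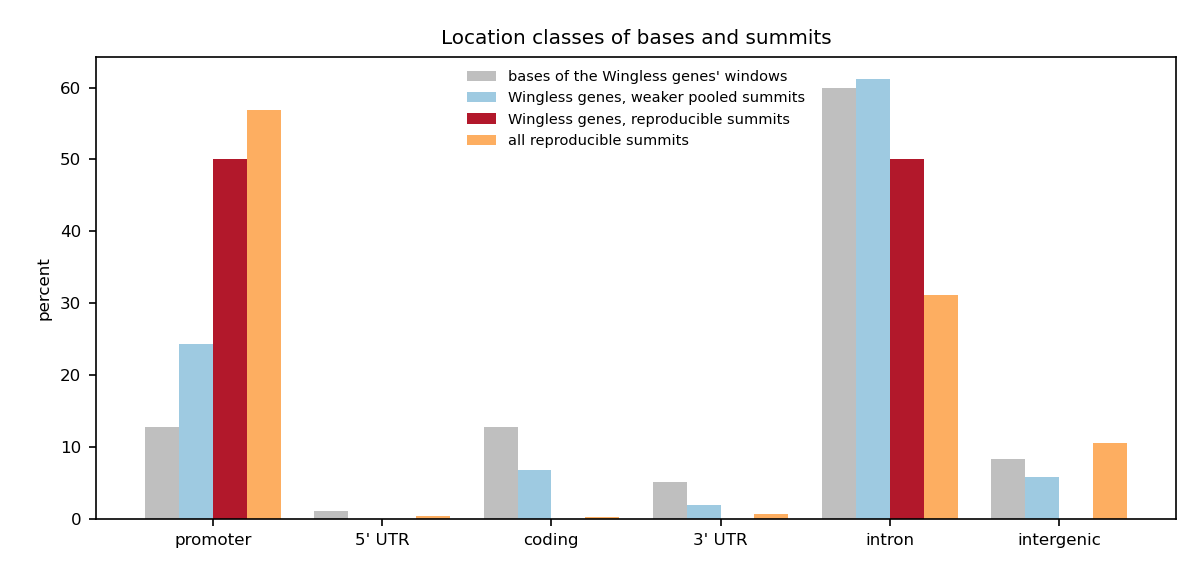
Percent of bases or summits in each location class, for the bases of the 10 windows, their 103 weaker pooled summits, their 24 reproducible summits and all 5326 reproducible summits. Reproducible summits of the Wg pathway genes appear in the promoter and intron classes only, with 12 in each.

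A window is not the same as the gene, and many of these summits lay nearest to a neighbour. The nearest TSS belonged to the gene itself for 7 of the 24 summits, 29.2%, and to another gene for 17. Over all pairs of a protein-coding gene and a summit in its window the own TSS was nearest in 30.7%, and in 47.4% for genes with windows of the same range of lengths. Of the 12 promoter summits, 4 had the own TSS nearest, those of Wnt6, sgg, arm and nkd, and 8 that of RpS28a, RpS3A, mRpL16, WASp, cnn or CG3808. Of the 12 intronic summits, 11 lay over 5000 bp from any TSS of the gene they lie in, at wg, fz, arr and nkd.

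Among the words searched within 100 bp of each summit, on both strands, the Su(H) word (TGTGGGAA or TGTGAGAA or CGTGGGAA or CGTGAGAA) was found at 1 of 24 summits, 4.17%, against 2.33% of all reproducible summits. That summit was the stronger WASp promoter peak beyond the 3' end of Apc. The site with its flanks is shown, with the Su(H) word in capitals, as the only match to the binding partner of Mam. Within 50 bp of the summit no Su(H) word was found, against 1.01% of all, and within 250 bp the share was 4.17% against 5.43%, so the order of the shares depends on the window. The site starts 62 bp from the summit, on the plus strand, and was chosen for display after the values were seen.
Su(H) word at Apc and WASp, chr3R:28832194-28832223: gagtggagagcTGTGGGAAtagtatatttt

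The core word of TCF/Pangolin (CTTTGAA or CTTTGAT or CTTTGTA or CTTTGTT) was found at 3 summits, 12.5% against 16.2% of all. These were the Wnt6 promoter and the weaker of the 2 overlapping arr intron peaks, with 2 matches each, and the internal sgg promoter with 1. At arr the replicates gave a single peak. Its summits in replicates 1, 2 and 3 were at offsets of -204, -86 and -215 bp from the weaker arr summit. From the stronger arr summit the offsets were -1, 117 and -12 bp, and that summit had no core word within 100 bp. In the sequences above, the sgg match starts 24 bp before the summit and one of the Wnt6 matches 4 bp before it. The helper word of TCF/Pangolin (GCCGCCA or GCCGCCG) was found at none, against 3.34%, and the Zelda word (CAGGTAG) at none, against 0.958%. These shares rest on 0 to 3 of 24 summits, and the one for the core word turned with the window: within 50 bp it was 12.5% against 8.45% of all.

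The GAGA factor word (GAGAG) was found at 9 summits, 37.5% against 21.9% of all, spread over Wnt6, fz, arr, Apc and nkd. Within 50 bp the order of the GAGA shares was the reverse, 4.17% against 9.82%, and within 250 bp it was 70.8% against 48.6%. The BEAF-32 word (CGATA) was also found at 9, 37.5% against 34.5%, including both arm peaks and those of wg, Axn and pan, but within 50 bp it was 16.7% against 21.4% and within 250 bp 12 of 24 against 56.2%. The promoter factor word DRE (TATCGATA), which contains the BEAF-32 word on both strands, was found at the mRpL16 promoter peak of the arm window, 4.17% against 5.82%. The core of Motif 1 (GGTCACAC) was found at the CG3808 promoter peak of nkd alone, 4.17% against 3.15%, and the E-box CACGTG at that peak and the mRpL16 peak, 8.33% against 2.38%. G+C made up 38.0% of the bases at the median summit of these genes and 36.3% at that of all. The weaker of the overlapping arr intron peaks, given as a single peak by the replicates, counts among the 9 for GAGA and the 9 for BEAF-32. A match is a run of letters and says nothing of whether the factor was bound.

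For other genes of the pathway, 24 of 32 had a reproducible summit in the window, 75.0% against 56.5% of all protein-coding genes, and 14 of 32 had one within 1000 bp of an own TSS, against 29.7%. Of genes with windows of 19.1 to 104 kb, 72.1% had a summit, and no genes were matched to the 32 in window length. The joined windows of the 32 covered 900 kb and held 0.600 summits per 10 kb, near the 0.574 of the 10 genes. The highest signals were those of gish, a casein kinase, at 1910 and rank 36, gro, the corepressor Groucho that binds Pangolin, at 934, dsh, the transducer Dishevelled, at 769, and dlp, a glypican that binds Wg, at 449. The dsh peak had the TSS of CG1737 nearest, and the dlp peak, in an intron, that of lncRNA:CR45888, 4193 bp away. No reproducible summit lay in the windows of the ligand genes Wnt2, Wnt10 and wntD, of por and Swim, which act in Wnt secretion and transport, of otk, a receptor-like gene, or of lgs and pygo, the partners of Armadillo in the nucleus.

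By role, the other 8 genes grouped here with the destruction complex all had a summit. Among them are gish and nmo, which do not encode core parts of the complex. Of all protein-coding genes, not matched in window length, 56.5% had one. Of these 8, 7 had one within 1000 bp of an own TSS, against 29.7% of all, but at 5 of the 8, Apc2, slmb, Tnks, Rnf146 and nmo, the strongest peak had another gene's TSS nearest. Of the 3 examined in depth, sgg and Axn had one there. The 5 other Wnt ligand genes had a summit in 2 cases and none within 1000 bp of an own TSS, where Wnt6 had one and wg had none. Of 8 genes known to respond to Wg in some tissue, 3 had a summit in the window. That is 37.5% against 56.5% of all protein-coding genes, which were not matched to the 8 in window length. None of the 8 had one within 1000 bp of an own TSS, against 29.7%. The 3 with a summit were dpp, a BMP ligand, with a highest signal of 309, vg, a wing selector, with 266 at the promoter of Nmda1, and Ubx, a Hox gene, with 258 at the promoter of modSP. The segmentation genes en, slp1 and eve, the Hox gene lab and the limb selector Dll had none. This list of 8 is not the whole of the Wg-responsive genes. It leaves out nkd, also induced by Wg, which had 5 reproducible summits in its window, 1 of them at its promoter.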

How the data were processed

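ChIP-seq for Mam-GFP was deposited as peak lists for 3 biological replicates of 1 group. The authors called peaks and background per replicate and on the pooled replicates, and derived an IDR-thresholded list, per the deposited notes. For the aligner, the caller, software versions and cut-offs, the details were not given in the sources used here. Every deposited peak carried the authors' signal, of unstated scale, and the authors' −log10 q-value, which was at most 4.00 and was not used for ranking. The dm6 lists were used and the dm3 lists were not.

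Summits (peak start plus summit offset) are 1-based dm6 positions. Genes and TSSs came from Ensembl 115 (BDGP6.54), without TSSs of transposable elements. Classes were promoter (up to 500 bp from a TSS), 5' UTR, coding, 3' UTR, intron (any other base of a gene) and intergenic, in that order. Python 3.11.15, pandas 2.3.3, numpy 2.4.6 and matplotlib 3.10.9 were used, and the scripts were tested on planted summits.

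The genes, lists and motifs were chosen with earlier results of these data known. The text names all 10 genes with every reproducible summit, the 4 genes with the highest signal of each other list, those without a summit, and genes whose TSS is nearest to a summit. Outside this rule, Apc2, slmb, Tnks, Rnf146 and nmo are named for the nearest TSS of their strongest peak. No test was run, since the design holds a single group. Alternatives were other flanks, promoter windows, thresholds, overlap rules and motif windows, and leaving out each replicate in turn. Labels give no batches. The control was not analysed here.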

Additional observations from a re-analysis of the deposited data

How the results depend on the processing

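No paired analysis was possible because the series holds a single group. The count of 24 reproducible summits was 14 in gene bodies alone, 10 in the strongest 2663 peaks and 127 in the whole pooled list. The count of 10 genes with a summit was 6 in gene bodies alone, 6 in the strongest 2663 peaks and 9 with flanks of 2000 bp. The density of 0.574 per 10 kb was 0.44 in gene bodies alone, 0.543 with flanks of 10000 bp, 0.239 in the strongest 2663 peaks and 3.04 in the pooled list. The promoter share of 12 in 24 was 37.5% with a promoter window of 200 bp, 54.2% with 1000 bp and 29.1% in the pooled list, and did not move with TSSs of transposable elements added, an alternative chosen after seeing the data. All 24 peaks had support from 3 replicates when every peak of each replicate counted, in place of 12.

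Leaving out a replicate kept only peaks supported by both others, which lowers counts by construction. It gave 7 of 10 genes with a summit whichever replicate was left out. It gave 13 to 18 summits, the fewest without replicate 2, a density of 0.311 to 0.43 per 10 kb and a promoter share of 44.4 to 53.8%. Gene by gene, the count of summits moved for 7 of the 10 with no flank. With flanks of 2000 bp it changed at arr from 5 to 3, at pan from 1 to 0 and at nkd from 5 to 4. With 10000 bp it changed at Axn from 1 to 3, at arm from 2 to 3 and at nkd from 5 to 6. The strongest 2663 peaks moved it for 8 and the pooled list for all 10. Leaving out replicates 1, 2 and 3 moved it for 6, 6 and 4 genes. Besides these, fz went from 4 to 3 without replicate 1 or 2, and nkd from 5 to 4 without replicate 3. The order of the motif shares, these genes against all, turned with the motif window for Su(H), the TCF/Pangolin core, GAGA, BEAF-32, Zelda and the core of Motif 1, and not for the other 3 words. The number of summits per gene, 1 to 5, and the unknown depth limit the precision of each gene's value.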

Other observations

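The Wnt genes around wg and Wnt6 form a cluster on chromosome 2L. From 7255419 to 7377528, 122 kb, it held 5 reproducible summits, 0.409 per 10 kb, against 0.398 over the main arms, and 24 pooled ones. Besides the intronic wg peak and the Wnt6 promoter peak there were 3 others. The strongest of the 5, at 7281421 to 7281816, was intergenic, with a signal of 236, 4448 bp from a TSS of the ligand gene Wnt4 and supported by 3 replicates. A peak at 7258094 to 7258489, of the intron class, had a signal of 212 and support from 3 replicates. Its nearest TSS, 780 bp away, was that of CG31909. The last, at 7295868 to 7296263, was intergenic, with a signal of 120 and support from 2 replicates, and its nearest TSS was that of wg, 11093 bp away. This position is outside the 5000 bp around wg and so was not counted for the gene.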
